A study of Homo sapiens with 2 samples.

Results

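Tetraspanins are small membrane proteins that cross the membrane repeatedly and expose a small and a large loop on the outside of the cell. They bind each other and their partners, among them integrins, immunoglobulin superfamily proteins and metalloproteases, and so build microdomains of the cell surface, of granules and of exosomes. In the megakaryocyte and platelet lineage CD9 and CD151 are prominent surface members, and CD63 marks lysosomes and platelet dense granules. The 10 tetraspanins described here are CD9, CD37, CD53, CD63, CD81, CD82, CD151, TSPAN3, TSPAN4 and TSPAN13. They were taken with every probe set that the platform annotation assigned to one of them alone, which gave 21 of the 54675 probe sets on the array, and 10 of the 19775 genes with such a probe set.

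MEG-01 is a megakaryoblastic cell line of chronic myeloid leukemia. The cells were transduced with a control lentivirus carrying Venus, a yellow fluorescent protein, or with one that also expressed GAS2DN, a truncated GAS2 with dominant negative action, and fluorescent cells were sorted. Expression came from a viral promoter, that of spleen focus forming virus. RNA of 3 extracts of each condition was pooled and run on a single Affymetrix U133 Plus 2.0 array. Since neither condition was repeated, differences have no error and no test could be made, and every value describes these 2 arrays.

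Signals are linear MAS5 signals in arbitrary units, and differences are log2 GAS2DN minus Venus. The Venus array had a median signal of 55.6 and the GAS2DN array one of 69.1. A probe set was called eligible when its brighter signal reached the median of that array. This held for 16 of the 21 tetraspanin probe sets and for 24840 single-gene probe sets in all. A gene is given by its main probe set, that is its brightest by mean log2 signal, and names ending in _x_at were passed over where another existed. The main probe set was eligible for all 10 tetraspanins and for 13086 genes, called measured. Agreement within the arrays was measured by the SD of the log2 difference between eligible probe sets of 1 gene of like brightness, in 10 bins of mean signal, called the probe set SD. It was 2.24 in the dimmest and 0.24 in the brightest bin, and it holds no spread between cultures. On simulated data it came out too wide in the 2 dimmest bins, so values there are rough.

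GAS2 was read by 1 probe set with signals of 24.3 in Venus and 34.7 in GAS2DN cells, both below the array medians. The paper reports GAS2 protein in MEG-01 cells by immunofluorescence and flow cytometry, and measured the GAS2 transcript in these cells by Q-RT-PCR. Whether this probe set reads the truncated GAS2DN was not tested. Megakaryocyte and platelet markers were measured for 9 of the 12 genes with a probe set, among them the integrin ITGA2B with 7149 and 9238, and 7 of the 9 had a positive difference, against 56.2% of all measured genes. The 2 with a negative difference were FLI1, with 10408 and 6806, and GATA1, with 1617 and 1516. A second bright probe set of FLI1 had 2848 and 2844. The median of the 9 was 0.37, against 0.06 over all measured genes. The summed signal of the main probe sets, those below the array medians included, was 24732 in Venus and 25063 in GAS2DN cells, while PF4, PPBP and VWF lay below the array medians. Of the markers of other cells with a probe set, 3 of 5 for B and T lymphocytes, 2 of 6 for granulocytes and monocytes, 1 of 2 for red cells and 1 of 5 for fibroblasts were measured. Summed in the same way over every marker with a probe set, their signals were 306 and 425, 314 and 452, 79.0 and 61.6, and 197 and 235 in this order. The red cell sum holds HBB, the beta globin, by a dim probe set with 74.2 and 40.5, since the others end in _x_at. Those 3 were bright and higher in GAS2DN cells, with 2122 and 3124, 2274 and 2805, and 1780 and 2556. Bright or eligible _x_at probe sets were likewise passed over for COL1A1, with 284 and 402, and for DCN, with 58.6 and 131 and with 56.0 and 109. The part of such cells in the values below was not tested.

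Promoter windows of 250 bases before a RefSeq start on GRCh38.p14 are shown for TSPAN13, which had the largest decrease of the 10, for CD53, a leukocyte tetraspanin with nearly equal signals, and for CD82. TSPAN13 and CD82 were the members with 1 start in the table, and for CD53 the start farthest upstream of its starts was taken. Each window runs 5′ to 3′ on the plus strand, at chr7:16753505-16753754 for TSPAN13, chr1:110870960-110871209 for CD53 and chr11:44565413-44565662 for CD82. Capitals mark matches on either strand to GGGCGG (GC box), CCAAT, the octamer ATTTGCAT, GATAA (GATA factors), AGGAAG (ETS factors) and TATAAA, and overlapping matches were all counted.
TSPAN13: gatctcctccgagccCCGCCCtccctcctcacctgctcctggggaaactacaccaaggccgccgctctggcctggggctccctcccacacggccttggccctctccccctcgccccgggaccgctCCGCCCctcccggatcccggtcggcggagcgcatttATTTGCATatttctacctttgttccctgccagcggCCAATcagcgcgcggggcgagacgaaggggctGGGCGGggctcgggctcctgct
CD53: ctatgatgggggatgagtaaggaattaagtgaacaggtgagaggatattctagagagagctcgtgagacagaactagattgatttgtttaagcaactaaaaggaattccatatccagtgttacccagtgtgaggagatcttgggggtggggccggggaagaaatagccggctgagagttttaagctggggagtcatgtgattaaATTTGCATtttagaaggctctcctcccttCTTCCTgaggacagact
CD82: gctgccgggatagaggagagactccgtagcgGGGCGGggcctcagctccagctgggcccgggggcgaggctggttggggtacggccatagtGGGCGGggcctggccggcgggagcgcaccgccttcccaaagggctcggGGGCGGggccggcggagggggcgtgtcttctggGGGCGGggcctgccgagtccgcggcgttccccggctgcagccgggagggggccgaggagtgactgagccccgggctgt
The TSPAN13 window held 3 GC boxes, 1 CCAAT box and 1 octamer, and 70.0% of its bases were G or C. The CD82 window held 4 GC boxes at 77.2% G or C. The CD53 window held no GC box, 1 octamer and 1 ETS match at 45.2% G or C, against a median of 58% over 35116 windows of the same length. GATAA and TATAAA had no match in the 3 windows. The other CD53 window, not shown, held 1 GC box, 3 ETS matches and no octamer at 44% G or C, so the CD53 matches depend on the start. Of all windows 42.6% held GGGCGG, 32% CCAAT, 1.63% the octamer, 20.4% GATAA, 28.7% AGGAAG and 10.7% TATAAA. The octamer was added to the search after the TSPAN13 window had been read. The matches describe letters only and were not related to any measurement. Windows were also listed for CD9, CD63 and TSPAN4, and not for CD37, CD81, CD151 and TSPAN3.

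TSPAN13 had the largest difference of the 10 tetraspanins. Its only probe set, 217979_at, had a signal of 11331 in Venus and 3789 in GAS2DN cells, a difference of -1.58 or 2.99-fold lower, against a probe set SD of 0.24 at this brightness. Of the 2484 eligible probe sets in the brightest bin, 3 were as low or lower, namely this one, 217731_s_at of ITM2B with -2.04 and 201993_x_at of HNRNPDL with -1.67. CD37, a tetraspanin of leukocytes and above all of B cells, differed in the opposite direction. Its main probe set 204192_at had 135 in Venus and 290 in GAS2DN cells, a difference of 1.10 or 2.15-fold higher, against a probe set SD of 0.48. In its signal bin 77 of 2484 eligible probe sets, or 3.10%, were as high or higher. The other CD37 probe set, 238321_at, went from 6.83 to 63.3 and was below the array median on both arrays.

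**Figure D1:**
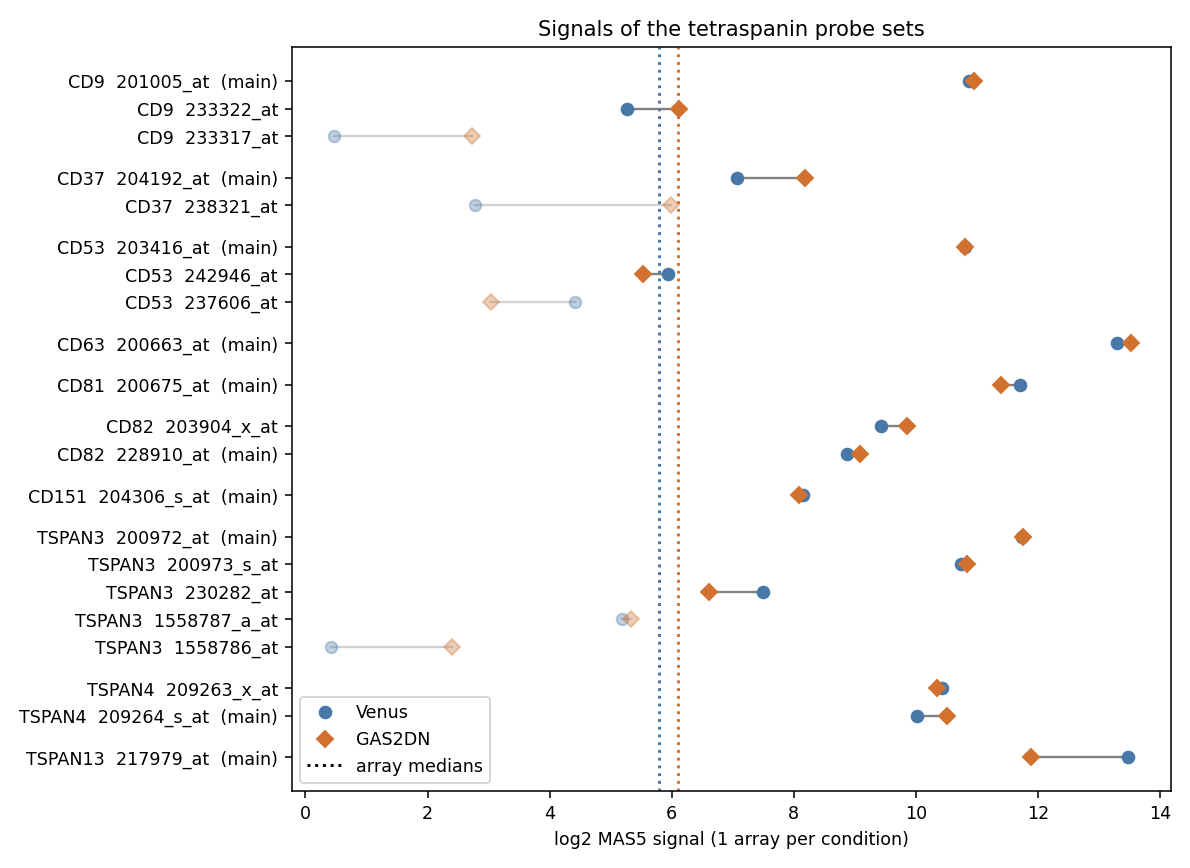
Log2 MAS5 signals (x axis) of the 21 single-gene probe sets of the 10 tetraspanins (y axis) in Venus (blue circles) and GAS2DN cells (orange diamonds), 1 array each, with faded symbols for the 5 probe sets that were not eligible and dotted lines at the array medians. TSPAN13 has the widest gap among the bright probe sets, with the GAS2DN signal on the left, and CD37 has the GAS2DN signal on the right in both of its probe sets.

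The TSPAN13 value rests on 1 probe set, so other bright probe sets with a decrease were set beside further probe sets of their genes, a comparison devised after the values were seen. In the brightest bin 16 of 2484 probe sets were over 2-fold lower in GAS2DN cells. Another eligible probe set of the same gene, in the fourth signal bin or above, was there for 11 of the 16, and in 0 of these 11 genes was another probe set over 1.5-fold lower. In 10 of the 11 every other probe set lay within 1.5-fold of equal signals. The other probe set of ITM2B had 0.12 and the 4 others of HNRNPDL had -0.37 to -0.27, so all 4 were lower too. The paper, which names this gene HNRPDL, reports it lower upon GAS2DN by Q-RT-PCR in MEG-01 and other CML cells. TSPAN13 was among the 5 genes without another probe set to set beside it, so the same comparison could not be made for TSPAN13. For CD37, 104 probe sets of its bin were over 2-fold higher, and 60 of them had another probe set in the fourth bin or above. In 11 of the 60 another probe set was over 1.5-fold higher. Both the 16 and the 104 were picked by their differences on these same arrays, so milder values in other probe sets were to be expected. The comparison therefore cannot bear on the TSPAN13 or the CD37 value.

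**Figure D2:**
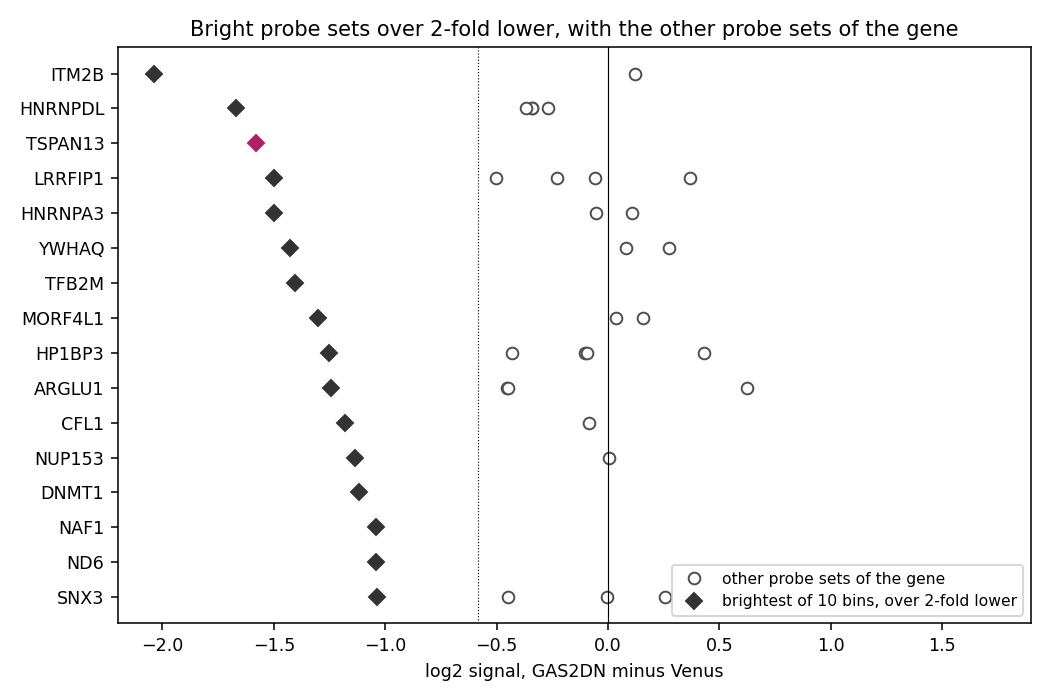
Log2 GAS2DN minus Venus (x axis) of the 16 probe sets in the brightest signal bin that were over 2-fold lower (filled diamonds, TSPAN13 in red) and of the other probe sets of the same genes in the fourth signal bin or above (open circles), with a dotted line at 1.5-fold lower. No open circle lies left of the dotted line, and TSPAN13 is 1 of the 5 genes without an open circle.

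The other 8 tetraspanins lay within 1.5-fold of equal signals by the main probe set, so that 8 of the 10 did so, against 76.6% of all measured genes. By the main probe set 1 of the 10 was over 2-fold higher, against 7.91% of measured genes, and 1 was over 2-fold lower, against 4.45%. In all 6 of the 10 had a positive difference, against 56.2% of measured genes, and the median of the 10 was 0.05, against 0.06 over all measured genes. The sign held for CD37, CD63, CD81, CD82, TSPAN4 and TSPAN13 under 5 other scalings or treatments of low signals. That of CD9, CD53, CD151 and TSPAN3 turned in at least 1 of them. Raising low signals left all 10 main values unchanged, so it was no check of their signs. Centring only took 0.12 from each value, so it could not turn the sign of a large difference. Over the 16 eligible probe sets 2 were over 1.5-fold higher, against 15.5% of all eligible probe sets, and 2 were over 1.5-fold lower, against 11.9%. As deposited none of the 16 was over 3-fold either way, while TSPAN13 was over 3-fold lower with centring, loess and quantile normalization. Of all eligible probe sets 4.96% were over 3-fold higher and 3.36% over 3-fold lower. These shares were 40.2% and 28.1% in the dimmest bin and 0% and 0.0805% in the brightest, and 7 of the 10 main probe sets lay in the 3 brightest bins.

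**Figure D3:**
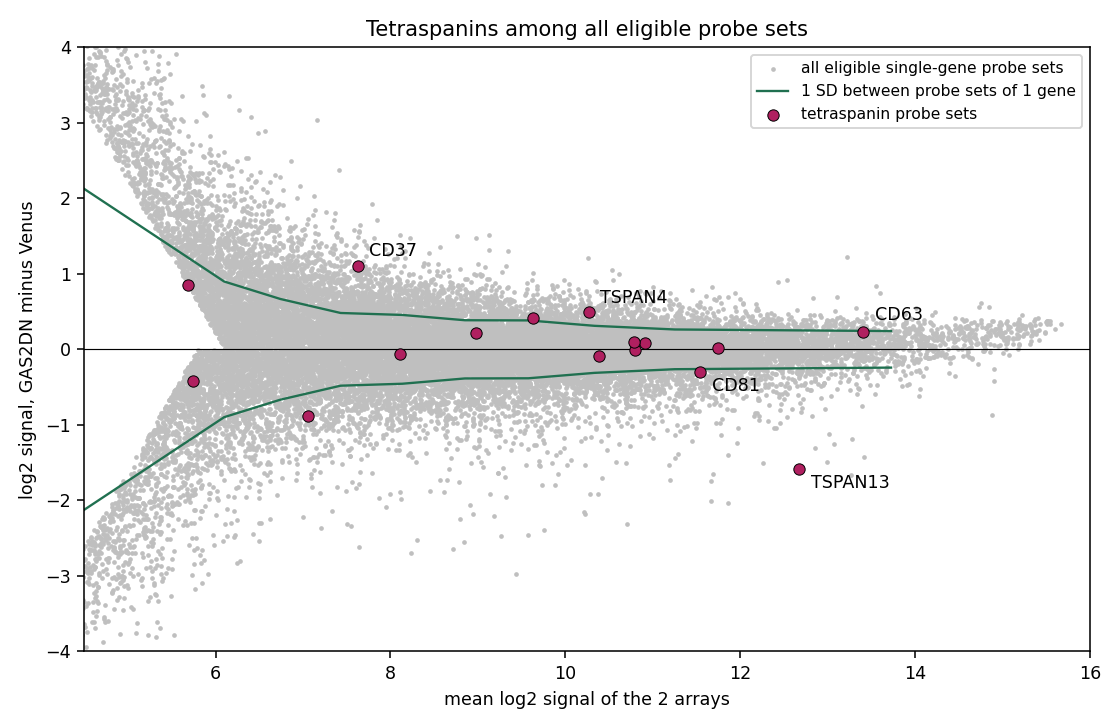
Log2 GAS2DN minus Venus (y axis) against the mean log2 signal of both arrays (x axis) for all eligible single-gene probe sets (grey) and the 16 of the tetraspanins (red), with green lines at 1 probe set SD on either side of 0. Values beyond the axis limits are not drawn. TSPAN13 lies far below the grey band at its brightness, CD37 in the upper part of the band, and the bright probe sets of the others near 0.

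Among the members known from platelets, CD63, the granule and exosome tetraspanin, had a signal of 10054 in Venus and 11773 in GAS2DN cells. The difference was 0.23, close to 1 probe set SD of 0.24, and in its bin 17.9% of probe sets were as high or higher. CD9, which binds integrins and takes part in membrane fusion, had 1872 and 1978 in its main probe set, a difference of 0.08 that turned to -0.04 when all differences were centred on their median. A second CD9 probe set, 233322_at, went from 38.4 to 69.1, a difference of 0.85 with the GAS2DN signal just above the median of its array, where the probe set SD was 2.24. The remaining one, 233317_at, had signals of 1.39 and 6.61 and was not eligible. CD151, the partner of laminin-binding integrins, had 283 and 270 in its only probe set, a difference of -0.07 that came just above 0 with the array median added to the signals. For these 3 genes the main values were within 1 probe set SD of equal signals.

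The leukocyte members CD37 and CD53 did not move together. CD53, a tetraspanin of nearly all leukocytes, had 1787 in Venus and 1781 in GAS2DN cells in its main probe set, a difference of -0.01 that turned positive under 3 of the 5 other scalings. Its second eligible probe set went from 61.6 to 46.2, a difference of -0.42 that turned to 0.16 with low signals raised to the array median. The last CD53 probe set went from 21.2 to 8.26 and was not eligible. The difference between CD37 and CD53 could not be tested with these arrays.

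CD81, a widely expressed member and an entry factor for hepatitis C virus, had 3319 in Venus and 2694 in GAS2DN cells in its only probe set. The difference was -0.30, a little over 1 probe set SD of 0.26, and 13.0% of probe sets in its bin were as low or lower. It ranged from -0.42 to -0.29 over the scalings. CD82, known as a suppressor of metastasis, went from 469 to 543 by its main probe set and from 687 to 920 by the other, with differences of 0.21 and 0.42. Both CD82 probe sets were higher in GAS2DN cells, by about the probe set SD or less, which was 0.39 and 0.38.

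TSPAN4, the tetraspanin of migrasomes, the vesicles left behind by moving cells, had 1039 in Venus and 1458 in GAS2DN cells in 209264_s_at. The difference was 0.49 against a probe set SD of 0.31, and 3.95% of probe sets in its bin were as high or higher. Its other probe set, 209263_x_at, had 1377 and 1301, a difference of -0.08, so the direction depends on the probe set. TSPAN3, a widely expressed member, had 3425 and 3470 in 200972_at, a difference of 0.02. A second bright probe set of TSPAN3 had 1709 and 1830, a difference of 0.10, and both turned negative with centring, at -0.10 and -0.02. A dimmer one, 230282_at, went from 181 to 98.2, a difference of -0.88 against a probe set SD of 0.67. Its other 2 probe sets, with 36.4 and 40.4 and with 1.34 and 5.26, were not eligible.

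Among the 5 tetraspanins with 2 or more eligible probe sets, CD9, CD53 and CD82 had all of them in 1 direction. This is 3 of 5, against 39.4% of the 6422 genes with 2 or more. For CD9 and CD53 it depends on the scaling. With centring CD9 had -0.04 and 0.73, and with loess CD53 had 0.01 and -0.74. The second probe sets of both genes lay in the dimmest bin, where the probe set SD was 2.24. Of the 5 probe sets that were not eligible 4 differed by over 2-fold, 3 of them upward and that of CD53 downward. Their signals were at most 63.3. Among eligible probe sets of the dimmest bin 48.5% were over 2-fold higher and 36.3% over 2-fold lower. The share over all probe sets that were not eligible was not computed. Without detection calls, whether signals of probe sets that were not eligible lie above background is not known.

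**Figure D4:**
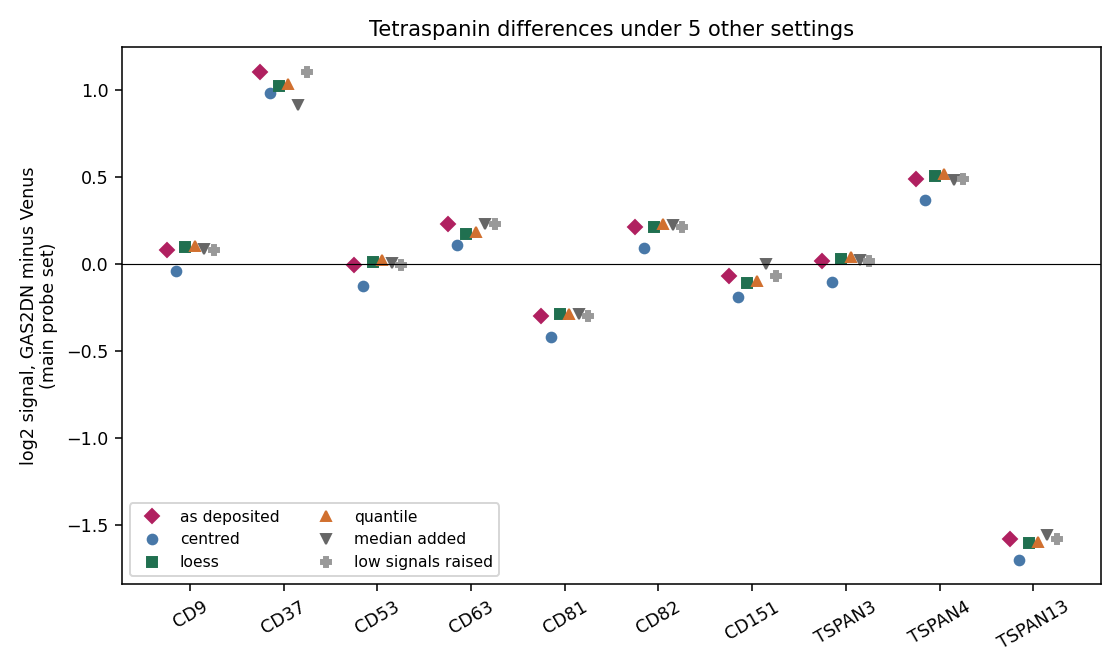
Log2 GAS2DN minus Venus (y axis) of the main probe set of each tetraspanin (x axis) as deposited (red diamonds) and under 5 other settings, namely centring, loess, quantile normalization, the array median added, and low signals raised to the array median. TSPAN13 stays between -1.70 and -1.56 and CD37 between 0.91 and 1.10, while the values of CD9, CD53, CD151 and TSPAN3 lie on both sides of 0.

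The rest of the family was taken from a list of 23 genes, of which 22 had a probe set and 15 were measured. Of these 7 had a positive and 8 a negative difference, against 56.2% positive over all measured genes. The median was -0.18, against 0.06 over all measured genes, and its sign depended on the setting, from -0.43 with quantile normalization to 0.20 by the second-brightest probe set. By the main probe set 1 of the 15 was over 2-fold higher, against 7.91% of measured genes, and 0 were over 2-fold lower, against 4.45%. The highest was PRPH2, peripherin of photoreceptor discs, from 12.1 to 127, a difference of 3.40. Its Venus signal was below the array median, and its probe set SD was 2.24. TSPAN9, a platelet tetraspanin, followed with 195 and 314, a difference of 0.69, while its other probe set had -0.39. The lowest were ROM1, the photoreceptor partner of PRPH2, from 69.4 to 42.1, and TSPAN6, from 991 to 602, both at -0.72. The probe set SD was 2.24 for ROM1, whose GAS2DN signal was below the array median, and 0.38 for TSPAN6. The other probe set of TSPAN6 had 0.19. TSPAN33, a member known from red cell progenitors, had 671 and 690, a difference of 0.04, and was named after its value was seen.

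Proteins that bind or travel with tetraspanins were taken from a list of 26 genes, of which 24 had a probe set and 21 were measured. Of these 15 had a positive and 6 a negative difference, against 56.2% positive over all measured genes, with a median of 0.19 against 0.06. By the main probe set 2 of the 21 were over 2-fold higher, against 7.91% of measured genes, and 0 over 2-fold lower, against 4.45%. IGSF8, an immunoglobulin superfamily partner of CD9 and CD81, had the highest, from 14.9 to 85.9, a difference of 2.53. PRKCA, a protein kinase C that binds to several tetraspanins, went from 28.8 to 79.4, a difference of 1.46. Both Venus signals were below the array median, where the probe set SD was 2.24. The lowest were CD44, the hyaluronan receptor, from 141 to 86.7, and SCARB2, a lysosomal membrane protein, from 316 to 198, with differences of -0.70 and -0.67. Other probe sets of CD44 had differences of up to 3.41, the largest from 6.70 to 71.4 with a probe set SD of 2.24. The second eligible probe set of SCARB2 had -0.69. ADAM10, the metalloprotease that is escorted by tetraspanins, had 9286 and 9567, a difference of 0.04, and SDCBP, the syntenin that binds CD63, had 11159 and 11670, a difference of 0.06. ADAM10 and SDCBP were named after their values were seen.

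**Figure D5:**
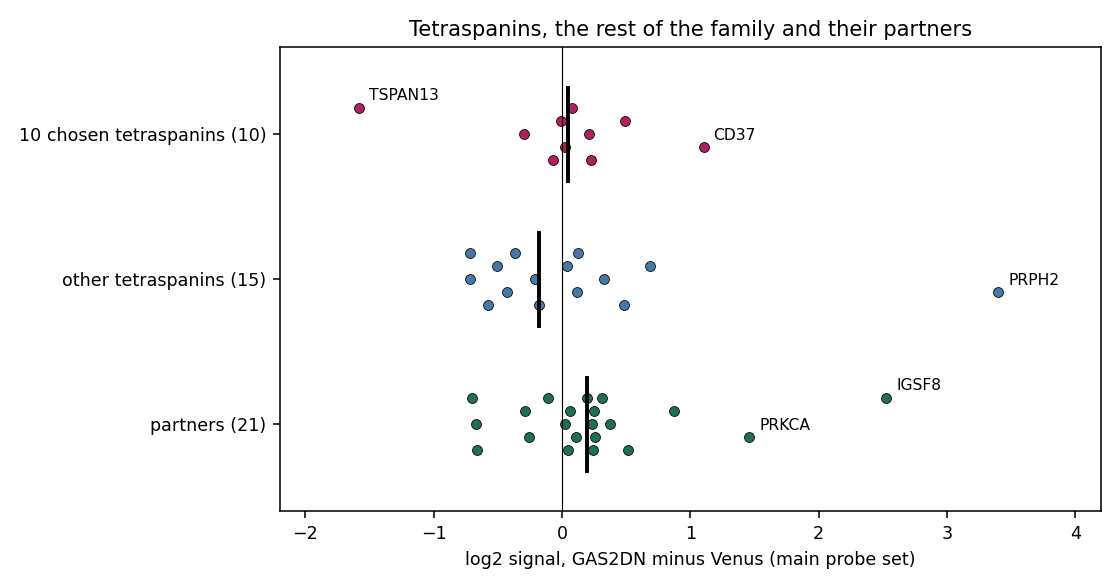
Log2 GAS2DN minus Venus (x axis) of the main probe sets of the 10 tetraspanins, of 15 other family members and of 21 partners (rows, 1 point per measured gene, spread vertically for legibility), with the median of each row as a black bar. Genes past 2-fold are named, and TSPAN13 is the only point left of -1.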

How the data were processed

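Tetraspanin signals were taken from a single table. The authors deposited log2 values of MAS5 signals, which the submitters' notes name without a version, for 1 array of Venus and 1 array of GAS2DN cells, each with RNA pooled from 3 extracts. Linear signals have a 2% trimmed mean of 500.1 on both arrays, and pooling hides the spread between extracts. MAS5 subtracts mismatch signals, which makes ratios of dim probe sets variable. Of 54675 probe sets 41091 were assigned to 1 gene by the platform annotation, and symbols were updated through gene identifiers of RefSeq (GRCh38.p14). The members and lists were chosen with earlier results of these data known. All 10 members and their probe sets are named, and of both other lists the 2 highest, the 2 lowest and those past 2-fold. The probe set SD was pooled over genes with 2 or more eligible probe sets in 1 of 10 signal bins. Alternatives changed the dim filter, the scaling (centring, loess with span 0.2 and 3 iterations, quantile), low signals, and the way from probe sets to genes. Steps were tested on simulated data. A planned comparison of protein sequences was not run. Scripts ran under Python 3.11.15, with statsmodels 0.14.6 for loess, numpy 2.4.6 and pandas 2.3.3 for tables, scipy 1.17.1 for trimmed means and matplotlib 3.10.9 for plots.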

Additional observations from a re-analysis of the deposited data

How the results depend on the processing

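No paired analysis was possible because each condition has 1 array. Of 93 values of single tetraspanins under alternatives 44 equalled the reported one. Some settings did not touch the bright main probe sets, and others came to the same probe set again, so these equal values are no further check. Of the 49 that differed 4 moved by more than the probe set SD at the brightness of the main probe set, all where other probe sets entered the value. By the second-brightest probe set 3 of 5 did so, with 0.85 for CD9, -0.42 for CD53 and -0.08 for TSPAN4. By the median over eligible probe sets CD9 had 0.46. The second probe sets of CD9 and CD53 lay in the dimmest bin with a probe set SD of 2.24, and their shifts were within that. TSPAN13 was 2.95-fold to 3.25-fold lower under the 5 scalings and treatments of low signals, and over 3-fold lower with centring, loess and quantile normalization. Centring took 0.12 from every difference and gave a median of -0.072 for the 10. Of the tetraspanin probe sets 4 of 16 were past 1.5-fold, while of all eligible probe sets 15.5% were over 1.5-fold higher and 11.9% lower. The count was 8 of 21 without the filter on dim probe sets and 2 of 16 with the array median added. Shares over all probe sets were not computed under those settings, so these counts cannot be set against the whole array. By the second-brightest probe set 3 of 5 tetraspanins had a positive difference. The median of the other family members was positive under 4 of 10 settings. It was -0.43 after quantile normalization, 0.04 by the median over eligible probe sets, 0.02 with the array median added, 0.12 without probe sets ending in _s_at, _x_at or _a_at and 0.20 by the second-brightest probe set. The alternatives for both other lists and for the probe set SD were chosen after seeing the data. The causes were not tested. Dim signals and the number of arrays limit the precision.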
